A study of Homo sapiens with 17 samples.

Results

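The transcription factors described here are 10 regulators of squamous epithelium, measured by RNA sequencing in the esophageal squamous cancer line KYSE140 (13 libraries) and the lung squamous cancer line SKMES1 (4 libraries). They are TP63, the Krüppel-like factors KLF5 and KLF4, the zinc finger proteins ZNF750 and OVOL1, the AP-2 factors TFAP2A and TFAP2C, and the grainyhead-like factors GRHL1, GRHL2 and GRHL3. The members were taken by gene symbol, a rule that uses no measured value, although these 10 were chosen with earlier results of these data known. Each of the 10 matched 1 of the 57820 genes listed in every library. The study asked how the enhancer e1, a noncoding element co-amplified with SOX2, controls that gene in squamous cancer. KYSE140 cells stably expressing an inactive Cas9 fused to repressor domains (CRISPRi) carried an e1 guide (guides 1 and 2, 1 library each) or a guide without a genomic target (2 libraries). KYSE140 cells stably expressing active Cas9 carried a guide to the SOX2 coding region (guides 2, 3 and 4, 1 library each) or a control guide to AAVS1 or to a chromosome 2 site (1 library each). Further KYSE140 cultures received 0.5 µM ARV-771, a small-molecule protein degrader, or DMSO for 6 h (2 libraries each). SKMES1 cells stably expressing dCas9-VP64, an inactive Cas9 with activator domains (CRISPRa), carried e1 guide 1 or 3 or a negative-control guide (2 libraries of each). All the CRISPR cells, controls included, had been infected with lentivirus and selected with drugs. They were selected populations, and no source used here describes them as clones. Within a CRISPR group the libraries differ in their guide, so their spread mixes guide and culture.

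TP63 encodes p63, the master regulator of basal cells in stratified epithelia. KLF5 and the AP-2 factors are also expressed in the proliferating basal layer of such epithelia. KLF4, ZNF750, GRHL3 and OVOL1 are known for their part in terminal differentiation and formation of the surface barrier, with ZNF750 a known target of p63. GRHL1 controls desmosomal genes, and GRHL2 maintains epithelial junctions and opposes mesenchymal gene expression. SOX2, which is expressed in basal cells of the esophagus and amplified in squamous cancers, is known to share many binding sites with p63 in such tumours.

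RSEM, which estimates a count of reads for each gene, gave a total expected count of 7260730 to 15781463 per library. SOX2, the perturbed gene, measured 365 and 379 TPM (a share of all transcripts, corrected for transcript length) under the CRISPRi control guides against 120 and 128 TPM under the e1 guides. It measured 397 and 428 TPM under the AAVS1 and chromosome 2 guides against 103, 125 and 221 TPM under SOX2 guides 2, 3 and 4. It was at 223 and 236 TPM with DMSO, at 9.80 and 10.5 TPM with ARV-771, at 1.53 and 1.68 TPM in the SKMES1 controls and at 224 and 316 TPM after e1 activation. Each perturbation thus moved SOX2 RNA in every library in the labelled direction, although Cas9 cutting need not remove the RNA. KYSE140 carried squamous markers in every control library, with KRT5 between 2398 and 3476 TPM and DSG3 between 46.5 and 79.4 TPM. In the SKMES1 controls KRT5 was at 0.05 and 1.26 TPM, DSG3 at 0.00 and 0.02 TPM and TP63 at 2.97 and 3.79 TPM. KRT5 and DSG3 were thus at or near 0 and TP63 was low but detected. Of the fibroblast or mesenchymal markers, VIM stood at 1639 and 2268 TPM. COL1A1 was at 13.5 to 19.1 TPM, against 9.81 to 16.5 TPM in KYSE140 controls. COL1A2, COL3A1, DCN and LUM did not exceed 0.18 TPM in the SKMES1 controls. Simple-epithelium markers were present there, with KRT8 at 551 to 685 TPM, KRT18 at 373 to 460 TPM and KRT19 at 259 to 532 TPM. EPCAM was at 34.52 to 41.65 TPM, against 222 to 244 TPM in KYSE140 controls. The SKMES1 library with control guide 2 stood apart from the one with control guide 1, with KRT14 at 118 against 0.31 TPM and KRT17 at 977 against 2.73 TPM. The chi-square per degree of freedom of the counts of that pair was 28.8, compared with 2.19 to 13.39 for replicate pairs of the other groups.

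Promoter windows of 300 bases, from 250 bases before to 50 bases after an annotated start, were read from RefSeq (GRCh38.p14) and held 9 windows for 6 of the members, TP63, KLF5, KLF4, TFAP2A, GRHL1 and GRHL3. The table had no entry for ZNF750, TFAP2C, GRHL2 and OVOL1. Of the 9 windows, 5 are shown, those of genes with the most distinct responses, namely GRHL3 and GRHL1, whose responses to e1 repression and SOX2 knockout had opposite directions, KLF4, which rose in SOX2 knockout, and TP63, which fell. Capitals mark matches on either strand to the letters searched, which were CATTGT (SOX), TGANTCA (AP-1), AACCNGTT (grainyhead), GGGNGGGG (KLF, also contained in GC boxes bound by SP factors), GCCNNNGGC (AP-2) and ACATGT (p63 core). The windows are, in order, chr1:24319107-24319406 and chr1:24322790-24323089 (both plus strand) for GRHL3, chr2:9951443-9951742 (plus strand) for GRHL1, chr9:107489720-107490019 (minus strand) for KLF4 and chr3:189631139-189631438 (plus strand) for TP63.
GRHL3 upstream start: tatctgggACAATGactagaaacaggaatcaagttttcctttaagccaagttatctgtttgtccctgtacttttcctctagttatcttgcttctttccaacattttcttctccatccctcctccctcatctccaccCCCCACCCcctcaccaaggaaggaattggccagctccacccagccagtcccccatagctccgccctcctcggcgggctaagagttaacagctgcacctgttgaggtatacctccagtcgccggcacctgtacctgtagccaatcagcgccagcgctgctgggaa
GRHL3 downstream start: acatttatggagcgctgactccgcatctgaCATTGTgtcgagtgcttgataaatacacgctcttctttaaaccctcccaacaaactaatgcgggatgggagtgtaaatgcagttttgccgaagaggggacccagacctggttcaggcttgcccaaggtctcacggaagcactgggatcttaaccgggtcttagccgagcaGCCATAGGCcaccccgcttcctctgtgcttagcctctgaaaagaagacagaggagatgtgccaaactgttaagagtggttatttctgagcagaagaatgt
GRHL1: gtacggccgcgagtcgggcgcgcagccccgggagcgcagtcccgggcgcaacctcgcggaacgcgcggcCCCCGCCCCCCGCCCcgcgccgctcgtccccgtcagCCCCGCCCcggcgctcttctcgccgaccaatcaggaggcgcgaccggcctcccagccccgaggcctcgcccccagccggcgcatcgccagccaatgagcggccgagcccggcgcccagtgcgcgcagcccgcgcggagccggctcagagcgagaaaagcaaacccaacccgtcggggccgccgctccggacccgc
KLF4: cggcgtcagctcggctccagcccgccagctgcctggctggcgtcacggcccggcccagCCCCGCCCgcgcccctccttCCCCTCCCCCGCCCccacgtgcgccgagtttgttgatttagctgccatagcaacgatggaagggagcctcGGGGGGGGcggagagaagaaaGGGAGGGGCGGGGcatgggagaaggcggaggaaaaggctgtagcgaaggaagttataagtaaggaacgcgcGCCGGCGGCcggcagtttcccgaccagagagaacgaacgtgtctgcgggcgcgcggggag
TP63: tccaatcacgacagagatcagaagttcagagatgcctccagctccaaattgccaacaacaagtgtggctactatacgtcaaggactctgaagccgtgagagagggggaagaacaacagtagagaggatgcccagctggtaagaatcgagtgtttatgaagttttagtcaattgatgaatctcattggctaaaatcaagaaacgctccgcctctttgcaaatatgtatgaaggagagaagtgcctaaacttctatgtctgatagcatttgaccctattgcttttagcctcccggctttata

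The SOX letters occurred once in each GRHL3 window, with the first base at -242 and -220 relative to the start, and 1 KLF5 window held them at -58. They occur in 10.8% of the 34796 promoter windows of this length in the table. KLF letters were found in 5 of the 9 windows, with 6 matches for KLF4, some overlapping, and 3 for GRHL1, while 37.6% of all windows hold at least 1. The AP-2 letters occurred in 1 GRHL3 window and in the KLF4 window (23.2% of all windows). None of the 9 windows held the AP-1, grainyhead or p63 core letters, which occur in 7.7%, 1.7% and 4.2% of all windows. The TP63 window held no match to any of the 6 letter strings. It covers 1 annotated start of the gene, and which starts these cells use was not determined.

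In the 6 control libraries of KYSE140, TP63 was the most abundant of the 10 regulators, with a lowest, median and highest level of 145, 155 and 182 TPM. KLF5 came next (40.6, 60.2 and 99.95 TPM), and no other range overlapped that of TP63. The range of KLF5 lay above that of TFAP2A, the next by median, but overlapped those of KLF4 and GRHL2. TFAP2A (29.0, 33.1 and 37.2 TPM), KLF4 (22.0, 29.8 and 43.1 TPM), GRHL2 (23.7, 28.5 and 41.8 TPM) and GRHL3 (21.1, 24.8 and 32.1 TPM) had overlapping ranges. A lower tier followed with TFAP2C (8.76, 14.0 and 18.1 TPM), OVOL1 (4.87, 6.27 and 9.85 TPM) and GRHL1 (2.35, 3.93 and 7.86 TPM), again with overlapping neighbours. ZNF750 was lowest, between 0.65 and 1.88 TPM, which corresponds to 17 to 27 counts per library. The control groups themselves differed for some genes, and KLF5 was lowest in the DMSO libraries (40.6 and 42.7 TPM) and highest with the knockout control guides (76.2 and 99.95 TPM).

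SKMES1 controls had a different profile, with 9 of the 10 regulators lower than in KYSE140 controls and KLF4 higher by edgeR's quasi-likelihood test with Benjamini-Hochberg adjustment (here and throughout, a call needed an adjusted p below 0.05 together with a change of more than 1.5 times). All 10 were thus called, while 57.2% of the 15532 genes tested were called in this contrast, in which cell line, Cas9 fusion and experiment cannot be told apart. TP63 was at 2.97 and 3.79 TPM (log2 difference -5.76 ± 0.10 SE, adjusted p = 9.6e-11). GRHL2 had no counts in any of the 4 SKMES1 libraries, so the KYSE140 control level was at least 333-fold higher than the level of 3 counts per library. GRHL3 had 5 and 3 counts, OVOL1 2 and 2 counts and ZNF750 1 and 0 counts in the SKMES1 controls. The ratio of KYSE140 to SKMES1 control counts scaled to depth was 110 for GRHL3 (95% exact interval 55.7 to 255, counting error only), 73.9 for OVOL1 (28.8 to 272) and 46.2 for ZNF750 (8.14 to 1840). The epithelial regulators GRHL2, GRHL3 and OVOL1 were at or close to the detection limit in SKMES1, whereas KLF5 remained at 10.3 and 25.6 TPM, TFAP2A at 3.39 and 5.86 TPM, TFAP2C at 2.19 and 4.69 TPM and GRHL1 at 1.43 and 2.40 TPM. KLF4 stood at 25.9 TPM with control guide 1 and at 170 TPM with control guide 2, so its higher mean in SKMES1 (log2 difference 1.53 ± 0.44 SE, adjusted p = 0.01) rested on the library with control guide 2. Without that library the difference was -0.36 (adjusted p = 0.00288), on the other side of 0 and under the minimum fold change.

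**Figure D1:**
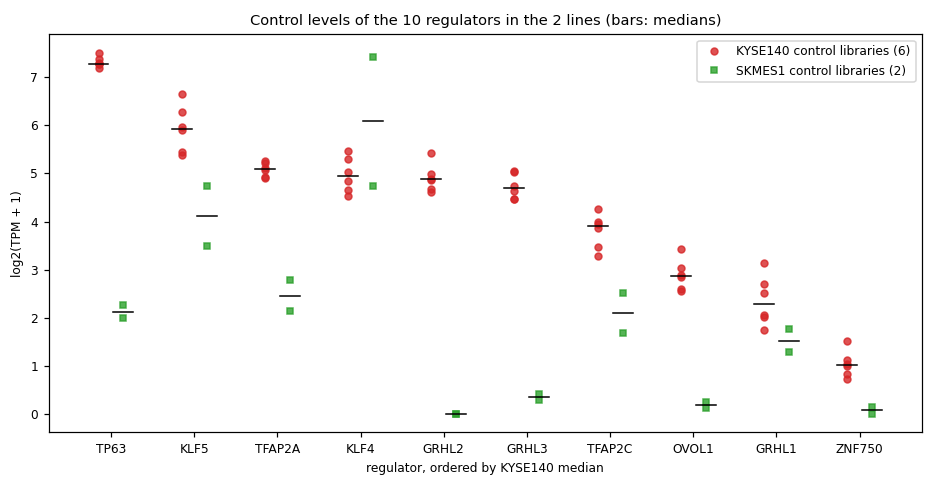
Levels of the 10 regulators, as log2(TPM + 1), in the 6 KYSE140 control libraries (circles) and the 2 SKMES1 control libraries (squares), with genes ordered by their KYSE140 median and bars at the medians. TP63 lies highest in KYSE140 and GRHL2 at 0 in SKMES1, and the SKMES1 squares of KLF4 are far apart (25.9 and 170 TPM).

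Repression of e1 in KYSE140 lowered TP63 and the 3 grainyhead genes and raised ZNF750 and OVOL1. Of the 10 regulators, 6 were called, 2 higher and 4 lower, and 20.0% of the 13792 genes tested were called. In bulk RNA, fewer cells of a type and less RNA per cell cannot be told apart, here or in the comparisons that follow. TP63 was at 153 and 157 TPM under control guides and 94.6 and 98.0 TPM with the e1 guides, so the groups did not overlap (log2 fold change -0.62 ± 0.05 SE, adjusted p = 8.6e-08). GRHL3 was at 21.1 and 23.8 TPM under control guides and 14.5 and 10.6 TPM with e1 guides 1 and 2, also without overlap (log2 fold change -0.80 ± 0.11 SE, adjusted p = 2.3e-05). OVOL1 stood at 6.36 and 6.18 TPM under control guides and 14.4 and 12.9 TPM with the e1 guides (log2 fold change 1.13 ± 0.13 SE, adjusted p = 3.0e-06). ZNF750, at low level in both groups, was at 1.00 and 0.77 TPM under control guides and 1.59 and 1.75 TPM with the e1 guides, that is, 21 and 22 against 36 and 43 counts (log2 fold change 1.14 ± 0.33 SE, adjusted p = 0.0115).

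GRHL1 was at 3.14 and 4.72 TPM under control guides and 2.82 and 2.61 TPM with e1 guides 1 and 2 (log2 fold change -0.71 ± 0.23 SE, adjusted p = 0.0181). The groups did not overlap, with control guide 1 close to the e1 libraries in TPM. In CPM (counts scaled to library size) GRHL1 was at 7.68 and 10.5 under control guides and 4.71 and 6.01 with e1 guides 1 and 2. The transcript length that RSEM assigned to it was 3577 bases with control guide 1 and 2554 bases with e1 guide 1, which raises the TPM of the latter for its count. GRHL2 fell by 0.61 on the log2 scale (SE 0.07, adjusted p = 4.1e-06), although its TPM values overlapped between groups, as described below. The remaining 4 members were not called. KLF5 was at 59.3 and 61.1 TPM under control guides and 65.3 and 63.3 TPM with the e1 guides (log2 difference 0.14, 95% interval 0.01 to 0.28). KLF4 (27.9 and 31.7 against 35.2 and 34.8 TPM) and TFAP2A (37.2 and 36.4 against 46.4 and 42.8 TPM) had log2 differences of 0.23 and 0.51 with adjusted p = 0.0303 and 1.5e-04, below the minimum fold change. TFAP2C was at 14.4 and 13.6 TPM under control guides and 11.2 and 12.5 TPM with the e1 guides (log2 difference -0.25, 95% interval -0.49 to 0.00, adjusted p = 0.0945).

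OVOL1 and GRHL3 kept their calls when any library was left out. TP63 and GRHL2 lie close to the minimum fold change, which TP63 missed without e1 guide 1 (log2 fold change -0.58) and GRHL2 without that guide (-0.54) or without control guide 1 (-0.58). ZNF750 lost its call without control guide 1, control guide 2 or e1 guide 2 (adjusted p = 0.064, 0.0586 and 0.065) and with DESeq2 (adjusted p = 0.0703). GRHL1 lost its call without control guide 2 or e1 guide 1 (adjusted p = 0.216 and 0.0783) and with DESeq2 (adjusted p = 0.106). TFAP2A passed the minimum without control guide 1 (log2 fold change 0.62).

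In SOX2 knockout the differentiation regulators stood far higher and TP63 lower. Of the 10 regulators, 7 were called, 6 higher and 1 lower, and 29.7% of the 13978 genes tested were called. ZNF750 changed most, from 1.88 and 1.19 TPM with the AAVS1 and chromosome 2 guides to 28.0, 26.8 and 23.7 TPM with SOX2 guides 2, 3 and 4 (log2 fold change 4.51 ± 0.17 SE, or 22.8-fold, adjusted p = 1.8e-09). OVOL1 stood at 7.16 and 9.85 TPM under control guides and 40.2, 39.6 and 35.9 TPM with the SOX2 guides (log2 fold change 2.37 ± 0.13 SE, adjusted p = 3.0e-08). The desmosomal regulator GRHL1 was at 5.48 and 7.86 TPM under control guides and 25.1, 25.6 and 22.6 TPM with the SOX2 guides (log2 fold change 2.24 ± 0.14 SE, adjusted p = 7.3e-08). For these 3 genes every knockout library exceeded every KYSE140 control library, those of the other experiments included. The same held for GRHL3, KLF4 and TFAP2A, described next.

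GRHL3 was at 21.2 and 32.1 TPM under control guides and 54.2, 62.6 and 61.3 TPM with the SOX2 guides (log2 fold change 1.52 ± 0.11 SE, adjusted p = 3.8e-07). KLF4 was at 38.4 and 43.1 TPM under control guides and 98.6, 100.3 and 100.7 TPM with the SOX2 guides (log2 fold change 1.47 ± 0.08 SE, adjusted p = 3.4e-08). TFAP2A stood at 33.8 and 32.5 TPM under control guides and 56.8, 54.1 and 66.1 TPM with the SOX2 guides (log2 fold change 1.11 ± 0.08 SE, adjusted p = 3.4e-07). TP63 was the only member called lower, at 167 and 182 TPM under control guides and 56.9, 64.3 and 78.5 TPM with SOX2 guides 2, 3 and 4 (log2 fold change -1.22 ± 0.08 SE, adjusted p = 1.5e-07). Over these 3 guides TP63 and SOX2 had the same order in TPM, both lowest with guide 2 and highest with guide 4. KLF5, KLF4, TFAP2C and GRHL2 also had this order in TPM. In CPM TP63, SOX2, KLF5 and GRHL2 kept it, whereas KLF4 and TFAP2C had the reverse order. The order was thus not particular to TP63, since KLF5 and GRHL2 shared it on both scales. ZNF750, OVOL1, GRHL1, GRHL3 and TFAP2A did not have this order on either scale. Over all genes the guide 4 library also lay further from guides 2 and 3 than these lay from each other. A link between TP63 and SOX2 levels over the guides was not tested. None of the 7 calls in SOX2 knockout was lost when a library was left out.

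KLF5, TFAP2C and GRHL2 passed the adjusted p but not the minimum fold change in SOX2 knockout. KLF5 was at 76.2 and 99.95 TPM under control guides and 97.2, 99.9 and 108 TPM with the SOX2 guides, ranges that overlap (log2 difference 0.35, adjusted p = 0.00678). TFAP2C was at 18.1 and 14.9 TPM under control guides and 10.2, 10.4 and 11.1 TPM with the SOX2 guides (log2 difference -0.33, adjusted p = 0.0344), and was called lower by limma on log2(TPM + 1) (-0.59). GRHL2 was at 23.7 and 24.5 TPM under control guides and 13.5, 14.99 and 24.1 TPM with the SOX2 guides, again overlapping (log2 difference -0.46, adjusted p = 5.7e-04). With scaling by library size only, which moved the median of all well-expressed genes to -0.21, GRHL2 was called lower at -0.66. The 10 most abundant genes took 9.83% to 10.7% of the counts in the knockout libraries and 6.23% and 6.25% in their controls.

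**Figure D2:**
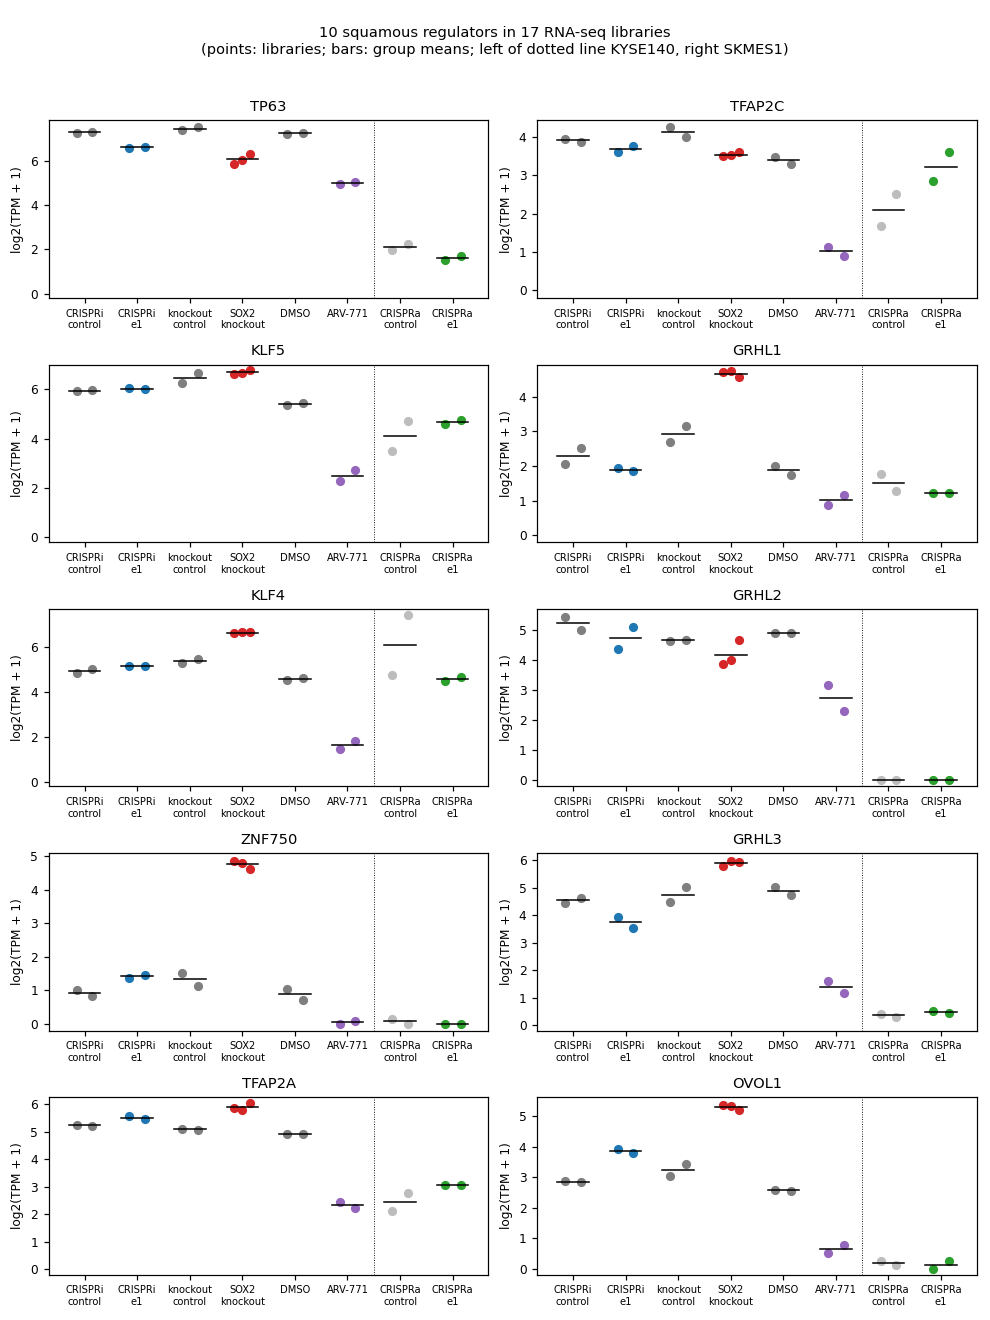
Level of each of the 10 regulators in each of the 17 libraries, as log2(TPM + 1), with 1 panel per gene, points for libraries and bars for group means. ZNF750, GRHL1, OVOL1, GRHL3 and TFAP2A are highest in the 3 SOX2 knockout libraries, and all 10 genes are lowest among the KYSE140 groups with ARV-771.

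Repression of e1 was set against SOX2 knockout in an interaction test of their effects over the 9 libraries. SOX2 loss was not compared between them, since SOX2 RNA does not measure the protein after Cas9 cutting. Of the 10 regulators, 6 differed between the perturbations, and 16.6% of the 14455 genes tested did. GRHL1 and GRHL3 fell in e1 repression and rose in SOX2 knockout, and the effect on the log2 scale was smaller in e1 repression by -2.94 ± 0.26 SE for GRHL1 (adjusted p = 3.8e-06) and by -2.30 ± 0.16 SE for GRHL3 (adjusted p = 5.6e-07). ZNF750 and OVOL1 rose in both, but less in e1 repression, with differences of -3.36 ± 0.34 SE (adjusted p = 1.1e-05) and -1.23 ± 0.19 SE (adjusted p = 3.3e-04). The difference for KLF4 was -1.22 ± 0.11 SE (adjusted p = 4.3e-06). With all 17 libraries in the fit, among which the SKMES1 controls diverge for this gene, the adjusted p for KLF4 was 0.217.

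TP63 fell in both, and less in e1 repression, by a log2 difference of 0.61 ± 0.10 SE (adjusted p = 4.1e-04), a ratio of 1.53 that lies next to the minimum. The call for TP63 was lost without e1 guide 2 (0.57), the chromosome 2 guide (0.56) or SOX2 guide 2 (0.55), and with DESeq2 (0.58), since the ratio fell below 1.5. The TFAP2A difference of -0.58 (adjusted p = 0.00213) was just below the minimum and passed it under several alternatives, such as DESeq2 (-0.61). For KLF5 (-0.19, 95% interval -0.44 to 0.06), TFAP2C (0.10, -0.23 to 0.43) and GRHL2 (-0.13, -0.36 to 0.11) the difference was not detectable at this replication. The perturbations also differ in the Cas9 protein and the control guides, which cannot be told apart from the target.

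ARV-771 lowered every one of the 10 regulators within 6 h. All 10 were called lower, while 52.9% of the 13500 genes tested were called and 31.7% were called lower. GRHL3 was at 31.7 and 25.8 TPM with DMSO and at 2.02 and 1.26 TPM with ARV-771 (log2 fold change -3.32 ± 0.15 SE, adjusted p = 7.7e-16). KLF4 was at 22.0 and 24.2 TPM with DMSO and at 1.81 and 2.53 TPM with ARV-771 (log2 fold change -3.28 ± 0.15 SE, adjusted p = 1.1e-15). KLF5 stood at 40.6 and 42.7 TPM with DMSO and at 3.82 and 5.62 TPM with ARV-771 (log2 fold change -2.50 ± 0.09 SE, adjusted p = 4.2e-17). In none of these genes did the groups overlap, and KLF4 and GRHL3 were 9.71-fold and 9.97-fold lower by the fitted change.

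TFAP2C was at 10.1 and 8.76 TPM with DMSO and at 1.20 and 0.87 TPM with ARV-771 (log2 fold change -2.89 ± 0.21 SE, adjusted p = 5.8e-12). OVOL1 was at 5.06 and 4.87 TPM with DMSO and at 0.44 and 0.72 TPM with ARV-771 (log2 fold change -2.33 ± 0.26 SE, adjusted p = 1.7e-08). GRHL2 fell by 2.19 on the log2 scale (SE 0.09, adjusted p = 1.2e-16), from 28.6 and 28.3 TPM to 7.87 and 3.91 TPM. TFAP2A was at 29.0 and 29.3 TPM with DMSO and at 4.49 and 3.71 TPM with ARV-771 (log2 fold change -2.15 ± 0.11 SE, adjusted p = 1.5e-14). ZNF750 had 20 and 17 counts with DMSO and 0 and 2 counts with ARV-771, a depth-scaled ratio of 19.4 (95% exact interval 5 to 166, counting error only, adjusted p = 2.3e-04 by edgeR).

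TP63 and GRHL1 had the smallest fitted effects of ARV-771. TP63, at 145 and 153 TPM with DMSO, was still at 29.6 and 32.3 TPM with ARV-771 (log2 fold change -1.48 ± 0.05 SE, adjusted p = 4.6e-17) and remained the most abundant of the 10. GRHL1 was at 3.03 and 2.35 TPM with DMSO and at 0.83 and 1.25 TPM with ARV-771 (log2 fold change -1.46 ± 0.29 SE, adjusted p = 6.7e-05). Each of the 10 stayed lower under every alternative that tested it. The size depends on the scaling, and the median of well-expressed genes moved from 0.01 to -0.45 with library size only and to -1.07 with scaling to mitochondrially encoded genes, which took 7.52% and 7.74% of counts with ARV-771 and 4.67% and 5.28% with DMSO. Under the mitochondrial scaling TP63 had a log2 fold change of -2.56 and GRHL1 of -2.54. The summed level of 6 squamous markers, mostly KRT5, KRT6A and KRT17, was 7047 and 7321 TPM with DMSO and 6968 and 7278 TPM with ARV-771. Single markers differed. DSG3 (48.2 and 54.6 against 31.7 and 33.9 TPM) and KRT14 (84.1 and 89.4 against 62.4 and 66.5 TPM) were lower with ARV-771, like TP63. KRT6A was higher (1966 and 2037 against 2300 and 2376 TPM), and KRT17 overlapped. KRT5, at 3221 and 3420 against 3000 and 3190 TPM, was nevertheless called higher by edgeR (log2 fold change 0.63, adjusted p = 2.2e-13). Higher calls under ARV-771 are therefore relative to the edgeR scaling, and the same libraries give a median of -0.62 over well-expressed genes by limma on log2(TPM + 1).

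Compared with SOX2 knockout in an interaction test, ARV-771 had a lower effect on 9 of the 10 regulators, and 55.9% of the 14612 genes tested were called in that contrast. The difference on the log2 scale ranged from -1.64 for GRHL2 to -8.09 for ZNF750, and was -4.65 for KLF4 and -4.74 for GRHL3. For TP63 the difference was -0.17 (95% interval -0.39 to 0.06, adjusted p = 0.182). It was called with limma on log2(TPM + 1) (-0.85) and with mitochondrial scaling (-1.24). The cultures differ in duration of treatment as well as in agent.

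**Figure D3:**
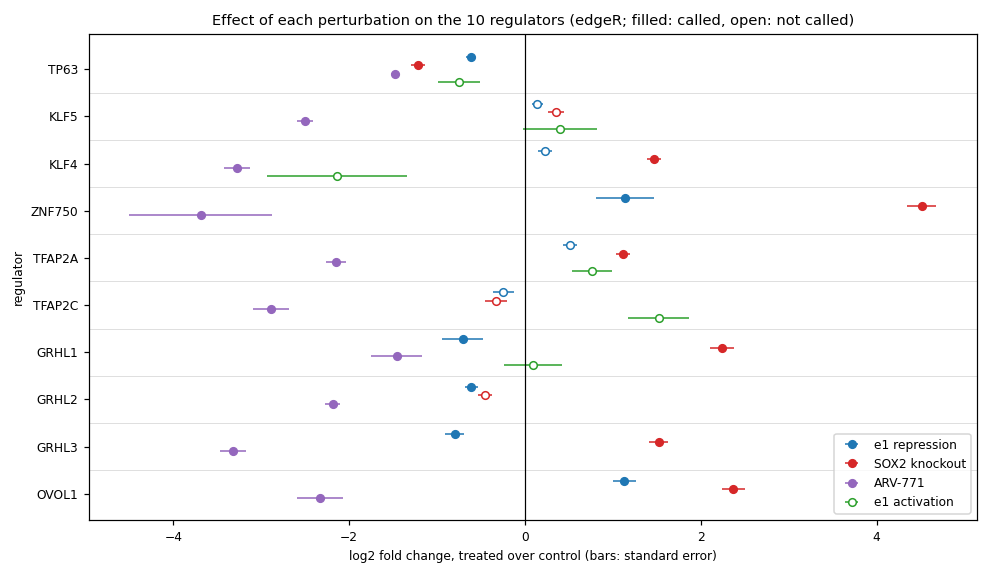
Log2 fold change (treated over control, edgeR) with standard error for each regulator in e1 repression, SOX2 knockout and ARV-771 treatment of KYSE140 and in e1 activation in SKMES1; filled points were called and open points were not. ARV-771 lies left of 0 for all 10 genes, whereas GRHL1 and GRHL3 lie on opposite sides of 0 for e1 repression (-0.71 and -0.80) and SOX2 knockout (2.24 and 1.52).

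After activation of e1 in SKMES1 no regulator passed the call rule, while SOX2 rose (log2 fold change 7.34 ± 0.26 SE, adjusted p = 0.00449). Of the 10 regulators, 6 had enough counts to be tested and 0 were called by edgeR's quasi-likelihood test, while 0.188% of the 14859 genes tested were called. By DESeq2, 1 was called (TFAP2C). In edgeR's quasi-likelihood test TP63, KLF4, TFAP2A and TFAP2C had an unadjusted p of 0.05 or less. TFAP2C was at 2.19 and 4.69 TPM under control guides and 6.22 and 11.1 TPM with e1 guides 1 and 3, without overlap (log2 difference 1.52, 95% interval 0.64 to 2.40, adjusted p = 0.179). TFAP2A was at 3.39 and 5.86 TPM under control guides and 7.43 and 7.36 TPM with the e1 guides (log2 difference 0.76, 95% interval 0.20 to 1.33, adjusted p = 0.248). TP63 was at 2.97 and 3.79 TPM under control guides and 1.87 and 2.24 TPM with the e1 guides (log2 difference -0.75, 95% interval -1.34 to -0.15, adjusted p = 0.276).

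KLF4 was at 21.8 and 24.5 TPM with the e1 guides, close to the 25.9 TPM of control guide 1 and far below the 170 TPM of control guide 2 (log2 difference -2.14, 95% interval -4.13 to -0.15, adjusted p = 0.326). It was called lower without control guide 1 (-2.92, adjusted p = 4.4e-05). KLF5 was at 10.3 and 25.6 TPM under control guides and 23.2 and 25.9 TPM with the e1 guides, with a log2 difference of 0.40 (95% interval -0.64 to 1.44). It was called higher without control guide 2 (1.24, adjusted p = 0.026). GRHL1 was at 2.40 and 1.43 TPM under control guides and 1.31 and 1.34 TPM with the e1 guides (log2 difference 0.09, 95% interval -0.74 to 0.92). ZNF750 was not detected in either e1 library, which allows up to 0.333 and 0.19 CPM (counts scaled to library size) at 3 counts. GRHL2 remained without counts, GRHL3 at 0.44 and 0.36 TPM, and OVOL1 at 0.00 and 0.20 TPM, so a change in these 4 genes was not detectable at this depth.

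For GRHL2, TPM and counts moved apart between replicates. In the CRISPRi controls it had 1230 and 1226 counts, or 41.8 and 30.8 TPM, and in the e1 libraries 614 and 731 counts, or 19.3 and 32.8 TPM. RSEM's abundance-weighted transcript length for GRHL2 was 3908 and 5122 bases in these controls, and 5120 and 3374 bases with the e1 guides. It was 5113, 5037 and 3565 bases with SOX2 guides 2, 3 and 4, and 2309 and 5073 bases with ARV-771. In CPM the groups did not overlap in e1 repression (mean 110 ± 3.09 SD against 70.4 ± 3.97 SD, n = 2 each). With limma on log2(TPM + 1) GRHL2 was not called in e1 repression (-0.49, adjusted p = 0.244). TP63, by comparison, had a length of 3699 to 4280 bases over the 13 KYSE140 libraries. Assigned lengths also varied in other members, so GRHL2 was not alone in this. With ARV-771 they were 2588 and 1469 bases for KLF4, 1663 and 2640 for TFAP2C and 1987 and 2865 for GRHL3. GRHL1 had 2202 and 1847 bases with ARV-771 against 3172 and 3576 with DMSO. OVOL1 kept 3034 bases in both ARV-771 libraries. The TPM values of such genes carry the same uncertainty.

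**Figure D4:**
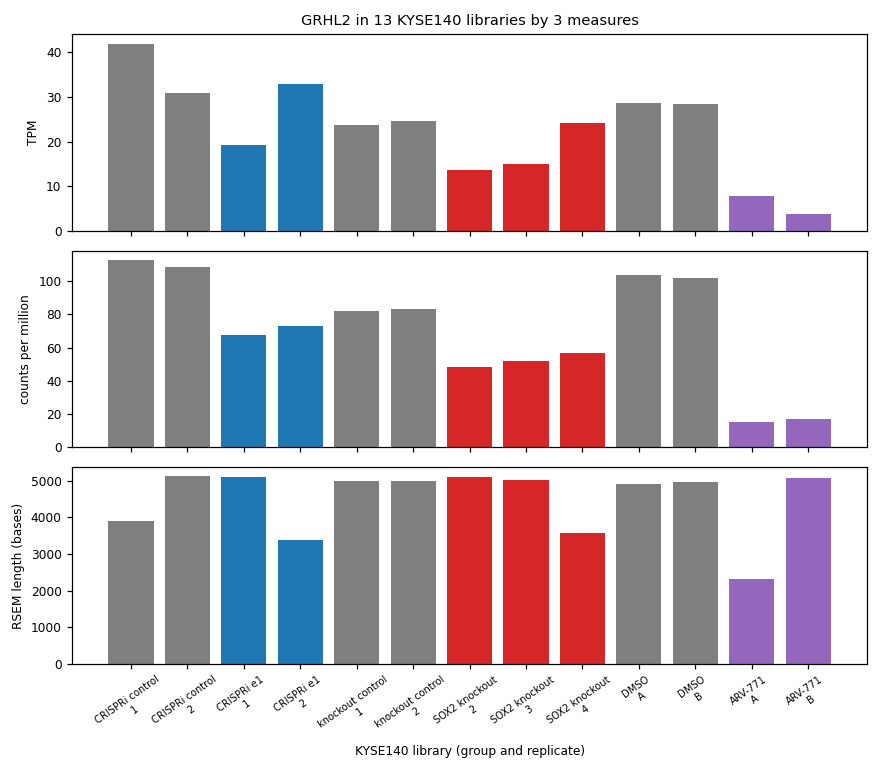
GRHL2 in each KYSE140 library (bars, coloured by group) as TPM, as CPM and as the transcript length assigned by RSEM in bases. Libraries with a short assigned length (3908, 3374, 3565 and 2309 bases) have a high TPM for their count, and in their 4 groups replicates lie closer together in CPM than in TPM.

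Reads of neighbours bear on some members. In GENCODE release 44 on GRCh37, ZNF750 (chr17:80787310-80797898, minus strand) overlaps TBCD on the opposite strand, which had 291 to 2746 counts, and GRHL3 (chr1:24526048-24690972, plus strand) overlaps STPG1 on the opposite strand, which had 76 to 484 counts. The libraries were directional, but the strand setting of the counting is not given in the sources used here, so the low values of ZNF750 in particular are uncertain. For TP63 (chr3:189349178-189615065), KLF5 (chr13:73629114-73651679), KLF4 (chr9:110247133-110252763, minus strand), TFAP2A (chr6:10393419-10419892, minus strand), TFAP2C (chr20:55204362-55214339), GRHL1 (chr2:10091822-10142405) and OVOL1 (chr11:65554534-65564685), overlapping genes listed in the files had at most 14 counts.

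Over the 13 KYSE140 libraries, the likeness of the regulators' levels is described by Pearson's r of log2(TPM + 1), without a test, since the libraries share groups and controls. TP63 and GRHL2 had r = 0.88, TP63 and TFAP2C 0.84 and TFAP2C and GRHL2 0.87. ZNF750 and GRHL1 had r = 0.95, OVOL1 and KLF4 0.96 and OVOL1 and GRHL1 0.89, whereas TP63 and ZNF750 had -0.13 and TP63 and GRHL1 0.07. KLF5, KLF4 and TFAP2A had r = 0.97 for each pair, with their lowest values under ARV-771. Among genes with a mean of at least 5 TPM, the pattern most like that of ZNF750 belonged to DSC2, a desmosomal cadherin (r = 0.991), and GJB2, a gap junction protein (0.989). The nearest to OVOL1 were JUNB, an AP-1 subunit (0.995), and OXSR1 (0.994), and the nearest to TP63 were LRRC8D, a subunit of volume-regulated anion channels (0.987), and TAF6L (0.985). Those of the other members were LMTK2 and FEM1C for KLF5, ITPKC and STK38 for KLF4, ALG2 and PCBP1 for TFAP2A, OGFOD1 and SPRED2 for TFAP2C, TM4SF1 and NT5C2 for GRHL1, PLD6 and PTCH1 for GRHL2, and ZNF706 and RAB3D for GRHL3, with r from 0.970 to 0.997.

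Genes linked to these regulators were counted in listed groups. Over all genes tested, 9.3% were called higher and 10.7% lower in e1 repression, 16.3% higher and 13.4% lower in SOX2 knockout, and 21.2% higher and 31.7% lower with ARV-771, and each count stands against these shares. Of 20 squamous differentiation genes, 18 were tested in SOX2 knockout and 17 were called higher and 0 lower, with a median log2 fold change of 6.60 (5.79 with the 2 genes absent from the controls set at their bound of 3 counts per library) against -0.01 over all genes. They included SPRR1A and IVL, components of the cornified envelope, with 5 and 6 counts of SPRR1A under control guides and 9423 to 23349 under SOX2 guides, and 2 and 2 counts of IVL against 4708 to 11379. In e1 repression 16 were tested, of which 9 were higher and 1 lower (median 2.82, also with 2 genes at their bound, against 0.00 over all genes), with SPRR3 at 6.05 and SPRR1B at 4.05 among the former and KRT13, a keratin of suprabasal esophageal cells, at -1.11. With ARV-771 only 8 were abundant enough, of which 3 were higher and 0 lower, KRT13 at 0.84 and SPRR1B at 1.49 among them. With so few genes tested, that count is not read as apart from the 21.2% of all genes that were higher. In the same libraries KLF4, ZNF750 and GRHL3 fell.

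Of 20 p63-linked basal genes, 12 were higher and 4 lower in SOX2 knockout, although TP63 fell. LAMA3 (2.46) and KRT5 (1.94) rose, while FGFR2, a growth factor receptor (-1.75), and JAG2, a Notch ligand (-0.66), fell. In e1 repression 6 were higher and 2 lower, with KRT14 at 3.63 and LAMA3 at 2.23 among the former and FGFR2 at -2.49 and KRT15 at -3.64 the latter, and the share that was lower is close to the 10.7% over all genes. With ARV-771 8 were higher and 3 lower, the hemidesmosomal collagen COL17A1 at 0.85 and PERP at 0.84 among the higher and PTHLH at -2.67 and FAT2 at -1.24 among the lower. Among 15 grainyhead-linked epithelial genes, 8 rose and 1 fell in SOX2 knockout (CLDN4 3.31, DSP 1.99, EPCAM -0.79). In e1 repression 1 rose and 2 fell (CLDN4 1.30, EPCAM -0.76, TMEM54 -0.78), a share of calls no different from the 20.0% over all genes. With ARV-771 7 were called higher and 4 lower, relative to the edgeR scaling (SPINT2 1.03, EPCAM 0.82, CLDN4 -1.77, PRSS8 -1.85).

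Of the 21 other members of the same families, 16 were tested in each KYSE140 comparison. With ARV-771 12 were lower and 0 higher, where 31.7% of all genes were lower, among them TFCP2L1 at -1.53 and the p53-family gene TP73 at -2.44. In SOX2 knockout 5 rose (KLF6 1.91, KLF3 1.30) and 2 fell (TP73 -1.58, TFCP2L1 -1.21), and in e1 repression 3 rose (KLF10 1.17, KLF7 0.83) and 4 fell (TFCP2L1 -2.16, TP73 -1.37). Of 20 other squamous and epithelial transcription factors, 16 were tested with ARV-771, where 13 were lower (FOXE1 -3.36, DLX5 -3.38) and 1 higher (SOX15 0.77). In SOX2 knockout 12 of 19 rose (ELF3 4.54, FOSL1 2.14) and DLX5 fell (-1.20), and in e1 repression 8 of 17 rose (FOSL1 3.57, EHF 3.54) and 5 fell (DLX5 -2.41, PITX1 -0.97).

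Markers of other cell types moved with some of these groups. The summed level of 6 squamous markers, TP63 among them, was 6965 and 7008 TPM in the CRISPRi controls, 12671 and 12858 TPM in e1 repression, 8502 and 8587 TPM in the knockout controls and 36319 to 45264 TPM in SOX2 knockout, with 3 of 6 called higher in e1 repression and 5 of 6 in knockout. That of 6 fibroblast or mesenchymal markers was 127 and 138 TPM in the CRISPRi controls, 1121 and 1194 TPM in e1 repression, 247 and 287 TPM in the knockout controls and 1196 to 1320 TPM in knockout. Only VIM and COL1A1 were abundant enough to be tested and both rose in either comparison, while COL1A2, COL3A1 and LUM did not exceed 0.24 TPM in any KYSE140 library. DCN was at 3.92 TPM in the chromosome 2 control library and at most 0.52 TPM in the other KYSE140 libraries. Of 4 simple-epithelium markers, 3 were lower in e1 repression (KRT19 -1.07, KRT8 -0.92, EPCAM -0.76), where their summed level was 1272 and 1289 TPM against 1788 and 1942 TPM with control guides. In SOX2 knockout KRT19 rose (2.03) while KRT8 (-1.04) and EPCAM (-0.79) fell, with sums of 2115 to 2429 TPM against 2213 and 2321 TPM. With ARV-771 KRT8 (0.88) and EPCAM (0.82) were called higher, relative to the edgeR scaling. In TPM KRT8 was at 832 and 817 with DMSO and at 920 and 916 with ARV-771. EPCAM was at 244 and 239 TPM with DMSO and at 245 and 254 TPM with ARV-771. Of 5 immune markers, CD68, also a lysosomal protein, rose in both (from 0.84 and 1.08 to 24.4 and 25.8 TPM in e1 repression and from 3.24 and 3.93 to between 53.8 and 70.2 TPM in knockout), while PTPRC and CD3E did not exceed 0.23 TPM in KYSE140. Of 8 mesenchymal transcription factors, 5 were tested in e1 repression, with 2 higher and 0 lower. In SOX2 knockout 5 were tested, with 2 higher and 1 lower (TWIST1 at -0.98). Of the 4 tested with ARV-771, 0 were higher and 3 lower. Among these factors SNAI2 rose in e1 repression (1.77) and in SOX2 knockout (1.54) and fell with ARV-771 (-1.25). The part of these markers in the values of the regulators was not tested.

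**Figure D5:**
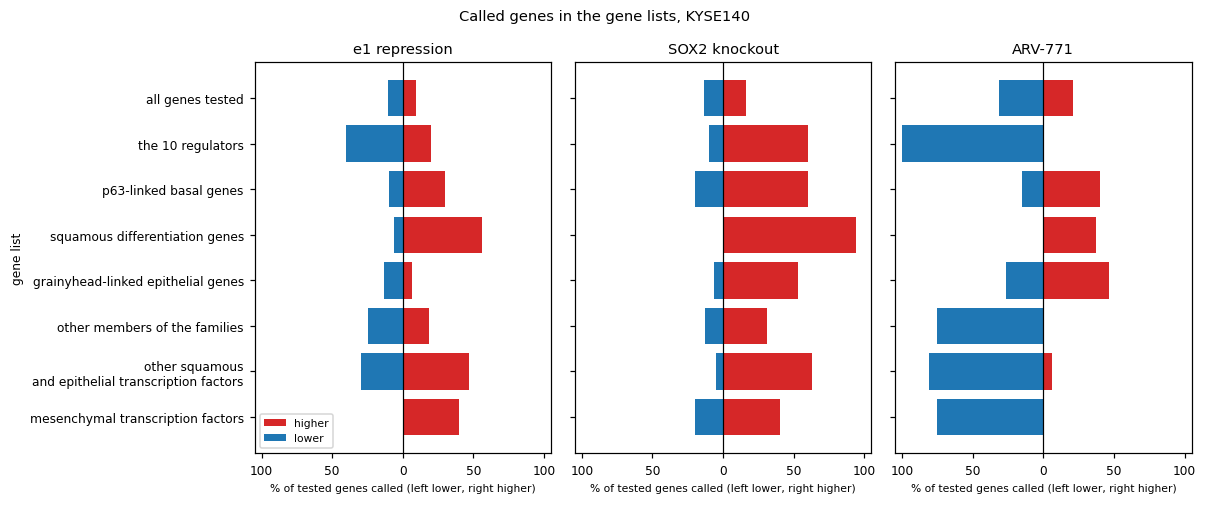
Share of tested genes called higher (right) and lower (left) in each gene list and over all genes tested, in the 3 KYSE140 comparisons. Squamous differentiation genes lie furthest to the right in SOX2 knockout (17 of 18), and the 10 regulators furthest to the left with ARV-771 (10 of 10).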

How the data were processed

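Poly-A RNA libraries, prepared with a directional kit, were aligned by the authors to hg19 with Bowtie2 and quantified for GENCODE genes with RSEM. Versions and strand setting are not given in the sources used here. The deposited tables hold an expected count per gene (not normalized between libraries), TPM and FPKM (both scaled within a library by the authors' RSEM run). FPKM was not used. RSEM fits transcript lengths per library, so TPM and counts can move apart. Of the members, GRHL1 had counts more than 0.005 from a whole number, in 7 libraries.

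Groups came from the sample labels. Rounded expected counts entered edgeR 4.0.16 in R 4.3.3 (glmQLFit and glmQLFTest, a quasi-likelihood test), with TMM scaling, filterByExpr at a minimum count of 10 and total of 15, and Benjamini-Hochberg adjustment over all genes tested, with only the libraries of the groups compared in a fit. The SE was derived from the F statistic, as the size of the log2 fold change over its root, and 95% intervals use the t quantile of the fit. A call needed an adjusted p below 0.05 with a change of more than 1.5 times. No pair of replicates was identical. The study describes the RNA-seq of e1 repression and of e1 activation as independent experiments. The libraries of SOX2 knockout and its controls carry different guides. For DMSO and ARV-771 nothing used here says that the RNA libraries came from separate cultures, so their p-values measure only the spread between these libraries, which may be technical. Simulated data served to check the quasi-likelihood test for e1 repression, SOX2 knockout, their interaction and SKMES1 against KYSE140 controls. The other comparisons were not simulated, nor were most of the alternatives listed below.

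The 10 members, the gene lists and the tests were chosen with earlier results of these data known. The text names the 10 members, SOX2, up to 2 called genes of each list and direction with the smallest p in each comparison, and the 2 genes with the most similar pattern. Markers, EPCAM and genes overlapping a member are named besides. Alternatives were DESeq2 1.42.0, RLE factors, library size only, no count filter, only genes averaging 50 counts or more, a minimum change of 2 times or none, 1 fit of all 17 libraries, limma 3.58.1 (trend) with a pseudocount of 1 or 0.1 TPM on genes averaging 1 TPM or more, the edgeR exact test, a replicate block, scaling to mitochondrially encoded genes, other KYSE140 controls and leaving out each library. At these depths 3 counts correspond to 0.19 to 0.413 CPM, and intervals on counts cover counting error only.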

Additional observations from a re-analysis of the deposited data

Results flagged for a closer look

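For 6 regulators the effect differed between e1 repression and SOX2 knockout in KYSE140. Each was tested as an interaction, the log2 fold change in e1 repression minus that in SOX2 knockout, by edgeR's quasi-likelihood test. GRHL1 (-2.94) and GRHL3 (-2.30) were lower with both e1 guides and higher with all 3 SOX2 guides, relative to their own controls. ZNF750 (-3.36), OVOL1 (-1.23) and KLF4 (-1.22) were higher in knockout by more than in e1 repression, and TP63 (0.61) was lower in knockout by more. Their adjusted p-values ran from 5.6e-07 for GRHL3 to 4.1e-04 for TP63.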

How the results depend on the processing

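Over the alternatives, 1110 values of single regulators kept their direction and side of the threshold, 32 lost a call, 32 gained one and 7 changed sign. In e1 repression the count of called regulators was 6, but 2 with a fold change over 2, 3 with limma on either pseudocount and 3 to 5 when a library was left out. In e1 activation it was 0, but 1 with DESeq2 and with the edgeR exact test, 3 without a filter, 4 with all 17 libraries in one fit and 0 to 1 when a library was left out. The counts elsewhere stayed within 1.5 times the value given, at 7 in SOX2 knockout and 10 with ARV-771 whichever library was left out. Signs changed in e1 activation for KLF5, from -0.11 without control guide 1 to 1.24 without control guide 2, and for GRHL1, from -0.04 without control guide 1 to 0.25 without control guide 2 (0.00 without e1 guide 1, and -0.31 and -0.46 with limma). They changed for GRHL2 in the e1 repression minus knockout contrast with library size only (0.01), and for KLF4 in SKMES1 against KYSE140, from -0.36 without SKMES1 control guide 2 to 2.31 without control guide 1. The cause was not tested. A replicate block was fitted where groups share replicate numbers and left the counts at 6 in e1 repression, 10 with ARV-771 and 6 in the interaction with knockout. The deviations of same-numbered libraries correlated at 0.02 in e1 repression and at 0.00 with ARV-771, so no shared deviation was seen. This check cannot tell whether same-numbered libraries were processed together. The other comparisons share fewer than 2 numbers. Counts over all genes depended more on the threshold, from 1527 to 6102 in e1 repression, 2340 to 7125 in SOX2 knockout and 1 (without e1 guide 3) to 1116 (without a filter) in e1 activation. Depth limits ZNF750, GRHL3 and OVOL1 in SKMES1 and ZNF750 with ARV-771.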

Other observations

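Transcription factors of mesenchymal cells stood higher in SKMES1 than in KYSE140 controls, where 6 of the 7 tested were called higher and 0 lower, against 31.4% of all genes higher and 25.8% lower, among them PRRX1, with 339 and 331 counts in SKMES1 and at most 1 per KYSE140 control library, and ZEB1, with 306 and 452 counts against at most 2. Grainyhead-linked epithelial genes were lower in 13 of 15, with RAB25 at 1 and 0 counts against 608 to 846 and ESRP1, an epithelial splicing regulator, at a log2 difference of -5.35, while CLDN4 was higher (1.01). In e1 repression compared with SOX2 knockout, 10 of the 15 grainyhead-linked genes had a lower effect and 0 a higher one, against 8.37% of all genes lower and 8.21% higher, with CLDN4 at -1.99 and DSP at -2.28. Of the squamous differentiation genes, 8 of 18 had a lower effect in that contrast, PPL (-2.33) and EVPL (-2.13) among them, and PADI1 had a higher one (2.93).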
